A study of Homo sapiens with 6 samples.

Results

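The regions described here were open in every CB-6644 library and in a single DMSO library. MM.1S is a cell line from multiple myeloma, a cancer of plasma cells, and its open chromatin was measured by Omni-ATAC in 3 libraries of cells given 120 nM CB-6644 for 72 h and 3 libraries of cells given the vehicle DMSO. The authors called peaks in each library separately, and both groups held live cells sorted by flow cytometry, so cells that died were not sampled. Nothing in the labels says whether the replicates were separate cultures. Peaks that overlapped by at least 1 bp were merged over the 6 lists on chromosomes 1 to 22, X and Y into 89196 regions. Members were chosen by these peak calls: a region was a member when all 3 CB-6644 libraries and exactly 1 of the 3 DMSO libraries had a peak in it. There were 784 members, 0.879% of all regions. Because the calls of all 6 libraries chose the members, and because regions are not replicates of a treatment, no test was made and the values are descriptions. The intervals are 95% Wilson intervals and cover counting error only.

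CB-6644 blocks the ATPases RUVBL1 and RUVBL2, partner proteins found in INO80, SRCAP and other chromatin remodelers. In ATAC-seq a transposase cuts open chromatin, so that reads pile up where nucleosomes are absent, mostly at promoters and at enhancers, the distal elements through which transcription factors regulate genes. Plasma cells depend on factors such as IRF4 and PRDM1, and MM.1S cells also carry a translocation that drives the transcription factor MAF.

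The sequences of the members can be read directly for the motifs of these factors. The windows below are 101 bp long and centred on the strongest summit of the region (the base with the highest pile-up). They are read on the + strand of hg38. Capitals mark only the matches named for a window, and other searched motifs stay in lower case, such as an AP-1 match (TGANTCA) in the ST14 window. The first windows are shown because they hold the MAF half-site TGCTGAC, or GTCAGCA on the other strand, the motif whose share among members stood highest relative to the regions with peaks in 2 libraries of each group. The LRRC70 and KIF4B regions were intergenic and the CX3CR1 region was intronic, and the KIF4B window also holds an E-box.
LRRC70 (chr5:63089289-63089389): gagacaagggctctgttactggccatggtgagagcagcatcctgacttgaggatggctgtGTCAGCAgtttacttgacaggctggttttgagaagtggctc
KIF4B (chr5:155167852-155167952): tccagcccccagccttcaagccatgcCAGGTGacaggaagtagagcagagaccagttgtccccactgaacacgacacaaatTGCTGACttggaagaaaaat
CX3CR1 (chr3:39273940-39274040): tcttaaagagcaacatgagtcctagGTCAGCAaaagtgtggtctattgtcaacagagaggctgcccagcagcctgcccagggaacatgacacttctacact

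The next windows hold a match to the NF-kB consensus, and those of CCL22 and ST14 also hold the palindromic E-box CAGCTG. The CCL22 region was intergenic, the ST14 region lay in an intron of ST14, and the region assigned to CCR1 lay in an intron of CCR3.
CCL22 (chr16:57349351-57349451): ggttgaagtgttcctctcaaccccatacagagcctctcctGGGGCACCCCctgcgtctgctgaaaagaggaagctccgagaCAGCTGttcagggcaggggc
ST14 (chr11:130178531-130178631): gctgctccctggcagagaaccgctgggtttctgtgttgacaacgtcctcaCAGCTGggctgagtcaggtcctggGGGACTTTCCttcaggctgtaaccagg
CCR1 (chr3:46253107-46253207): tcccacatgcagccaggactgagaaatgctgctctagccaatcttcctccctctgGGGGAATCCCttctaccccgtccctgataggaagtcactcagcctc

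The asymmetric E-box CAGGTG, or CACCTG on the other strand, was the most frequent match of the motifs searched, and the following windows hold more than 1 copy. The region assigned to SEC13 lay in an intron of ATP2B2 and the FCRL5 region was intergenic.
SEC13 (chr3:10376561-10376661): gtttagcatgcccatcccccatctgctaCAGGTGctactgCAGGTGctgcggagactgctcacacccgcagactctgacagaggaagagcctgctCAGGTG
FCRL5 (chr1:157359767-157359867): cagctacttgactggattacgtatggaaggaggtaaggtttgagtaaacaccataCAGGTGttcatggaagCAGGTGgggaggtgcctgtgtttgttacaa

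Matches to the IRF and CTCF consensus were less frequent among members than in all regions, and 1 window of each is shown for contrast. The RUSC2 window holds an IRF match between genes and the CD38 window a CTCF match in a CD38 intron.
RUSC2 (chr9:35439322-35439422): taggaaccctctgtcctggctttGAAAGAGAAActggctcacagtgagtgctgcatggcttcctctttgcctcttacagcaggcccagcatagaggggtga
CD38 (chr4:15805775-15805875): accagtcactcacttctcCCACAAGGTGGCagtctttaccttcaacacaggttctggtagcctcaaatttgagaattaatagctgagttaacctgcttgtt

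The 6 lists differed in ways that bear on which library shared a peak. They held 58563 to 71781 peaks for CB-6644 and 65569 to 79020 for DMSO, with the longest list from DMSO replicate 1. The lists give no read totals, so the depth is not known. The lowest local background that could be solved from the peaks' folds and p-values, per kb, ran from 3.20 to 7.05 tags for CB-6644 and from 6.40 to 9.08 for DMSO. The list of CB-6644 replicate 2 went down to peaks of 65 bp and that of DMSO replicate 1 to 91 bp. The other 4 lists stopped at 131 to 152 bp, and these 4 libraries are called long-fragment libraries here because the caller's shortest peak by default follows its fragment length. This is an inference, since the caller's settings are not given in the sources used here. Of the 10 plasma cell markers looked up, 9 had a promoter peak in all 6 libraries, and JCHAIN had one in 2 CB-6644 libraries and 1 DMSO library. Of 6 markers of other cells, CD3E and LYZ had none, while CD14, COL1A1, EPCAM and PAX5 had one in all 6. A promoter peak alone therefore did not mark a plasma cell gene, and no expression values were used here.

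DMSO replicate 1 shared most of the members. It had the peak in 491 of them, 62.6% (interval 59.2 to 65.9) and 0.550% of all regions. DMSO replicate 2 had it in 170, 21.7% (18.9 to 24.7) and 0.191% of all regions. DMSO replicate 3 had it in 123, 15.7% (13.3 to 18.4) and 0.138% of all regions. The same order held for every region with a peak in only 1 DMSO library, whatever its CB-6644 calls. DMSO replicate 1 accounted for 55.2% of those, and 6.22% of its 7895 such regions were members, against 4.74% of 3587 for replicate 2 and 4.38% of 2811 for replicate 3. The opposite class, with all 3 DMSO libraries and 1 CB-6644 library, had 3165 regions, 3.55% of all, spread over CB-6644 replicates 1, 2 and 3 as 1045, 1239 and 881.

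The order depended on where the lists were cut. When every list was cut to the 58563 strongest peaks that the shortest one held, 813 regions met the rule, and the share with DMSO replicate 1 fell to 34.2% while that with replicate 3 rose to 38.3%. Only 191 of the 784 members (24.4%) met the rule under both lengths. Of the others, 369 became regions with peaks in the 3 CB-6644 libraries alone, since their weak DMSO peak left the list, and the rest lost a CB-6644 peak. With the 20000 strongest peaks of each list, 400 regions met the rule, DMSO replicate 1 again shared most of them (70.0%), and 0 of them were among the 784, of which 748 then had no peak in any library. Leaving out 1 library, which loosens the rule, gave 1198 regions (without CB-6644 replicate 1) to 2124 (without DMSO replicate 2), and all 6 such counts were more than 1.5 times the 784.

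**Figure D1:**
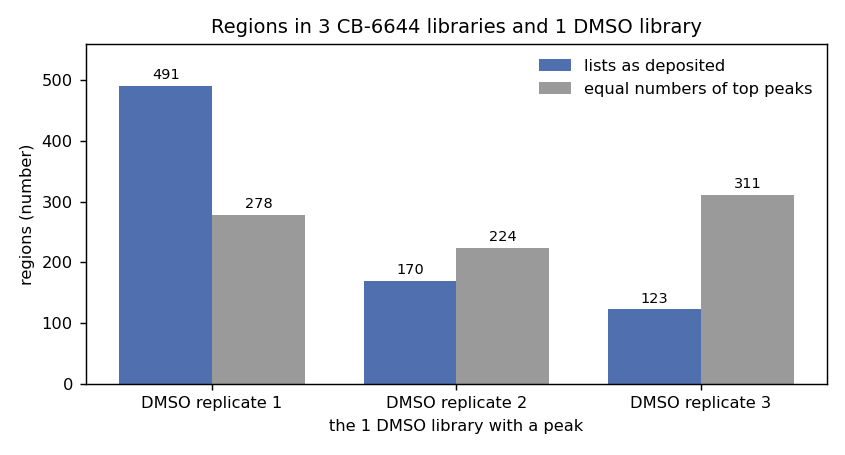
The bars give the number of regions (vertical axis) with a peak in all 3 CB-6644 libraries and in only the DMSO library named below them, in blue from the lists as deposited and in grey from the 58563 strongest peaks of each list. DMSO replicate 1 fell from 491 to 278 and replicate 3 rose from 123 to 311.

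Members were weak peaks in all the libraries that had them, and weakest in the DMSO library. Strength is given as the percentile of a peak's -log10 p within its own list, where 100 is the strongest. The median over the 784 members was 24.5 in CB-6644 replicate 1, 32.5 in replicate 2 and 23.6 in replicate 3. In the DMSO library that shared them the median was 19.0 for replicate 1, 9.53 for replicate 2 and 7.25 for replicate 3. These are values of the readout that chose the members, so they describe the class and show no effect of the treatment. The pile-up at the summit, solved from its fold and p-value, had a median of 23, 13.0 and 25 tags in the CB-6644 libraries and of 16.0, 18.0 and 16.0 in the 3 DMSO libraries.

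The DMSO peak ranked below all 3 CB-6644 peaks of its region in 260 of 491 members with DMSO replicate 1 (53%), and 9.21% of the regions with peaks in all 6 libraries did so. It ranked below in 98 of 170 with replicate 2 (57.6%), against 14.3% of the regions in all 6 libraries. For replicate 3 it was 77 of 123 (62.6%) against 25.3%. The DMSO peak ranked above all 3 CB-6644 peaks in 47, 8 and 5 members, so the order was not uniform. Among the 4 long-fragment libraries, the ratio of pile-up to local background was higher in CB-6644 by a median of 1.51 times for DMSO replicate 2 and 1.70 times for replicate 3. Between CB-6644 replicate 2 and DMSO replicate 1, whose shortest peaks of 65 and 91 bp are not alike, it was 2.22 times higher. In regions with peaks in all 6 libraries the same ratios were 0.994, 1.11 and 1.33. Regions with peaks in 3 CB-6644 and 2 DMSO libraries lay between these and the members, with ratios of 1.24, 1.42 and 1.68. In that class the DMSO peak ranked below all 3 CB-6644 peaks in 27.9%, 39.4% and 48.5% for DMSO replicates 1, 2 and 3. The order is thus graded and not particular to the members.

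**Figure D2:**
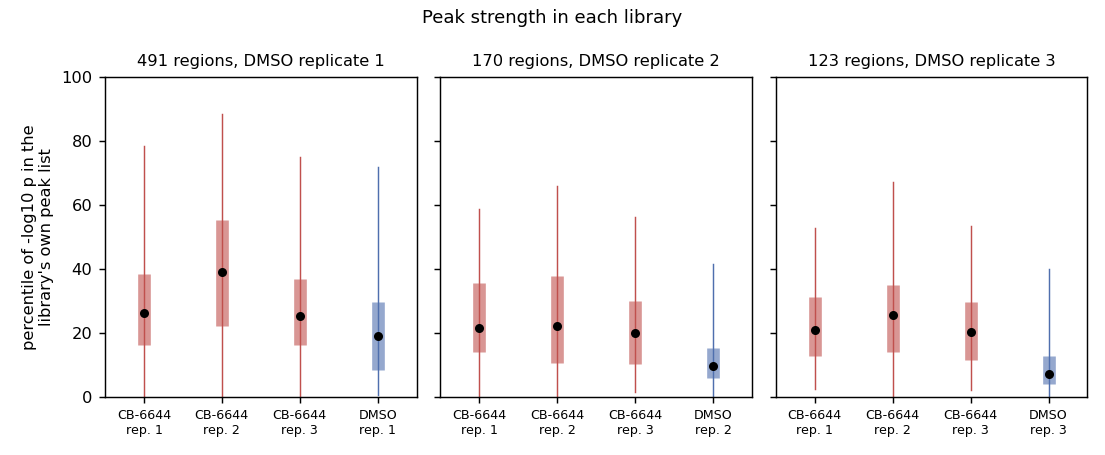
Each panel holds the members shared with 1 DMSO library, and the vertical axis is the percentile of -log10 p within each library's own list. Dots are medians over regions, thick bars run from the lower to the upper quartile, thin lines from the lowest to the highest value, red for CB-6644 and blue for DMSO. The DMSO median is the lowest in every panel, at 19.0, 9.53 and 7.25, and the ranges overlap.

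The summits of a member lay close together, which the merging of overlapping peaks favours. The DMSO summit fell inside the peaks of all 3 CB-6644 libraries in 679 members (86.6%), inside 2 of them in 95 and inside 1 or none in 10. The median distance between the DMSO summit and the CB-6644 summit was 17.0 bp. For the DMSO libraries without a peak no value is listed, and their signal there is not known.

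Members just inside the rule were set by DMSO peaks near the caller's threshold. The weakest was 478 kb from the nearest start, that of LINGO2, with a -log10 q of 3.23 in DMSO replicate 3 and a pile-up of 8 tags, against 12, 5 and 16 in the CB-6644 libraries. In STRIP2, a subunit of a phosphatase complex, the DMSO replicate 2 peak had a -log10 q of 4.23 and a pile-up of 9, against 41, 22 and 39. Just outside, a second weak DMSO peak removed a region from the class. In an intron of KIAA0825 that second peak had a -log10 q of 3.39 in DMSO replicate 1, and in an intron of AKAP10, an anchor protein of protein kinase A, it had 4.12 in DMSO replicate 3. The AKAP10 region had pile-ups of 33, 16 and 52 in CB-6644 and 9 in each of its DMSO libraries, so regions on both sides of the rule looked alike.

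Among members shared with DMSO replicate 1, the strongest over all 4 libraries was in an intron of UIMC1 (chr5:176985623-176985866), which binds ubiquitin chains at DNA breaks. Its percentiles were 67.5, 81.5 and 68.7 in CB-6644 and 70.8 in DMSO, with pile-ups of 52, 42, 64 and 49, so the DMSO value lay within the CB-6644 values. The intergenic region 9.92 kb from the C6orf15 start and that 50.5 kb from the RUSC2 start were like it, with DMSO percentiles of 67.2 and 62.0 inside the CB-6644 ranges. The region nearest to CA8, 309 kb away, also had a DMSO percentile, 61.8, inside its CB-6644 range. A different picture came from the members ranked by their CB-6644 peaks alone. Far from any start, 510 kb from LRRC70, the percentiles were 78.3, 79.0 and 73.1 in CB-6644 and 43.2 in DMSO, with pile-ups of 77, 41 and 79 against 24. Near WEE1 (chr11:9562777-9563058), which encodes the kinase that keeps CDK1 inactive before mitosis, they were 65.5, 79.7 and 74.9 against 20.3, with pile-ups of 76, 56 and 114 against 26. Near KDM3A, a histone H3 lysine demethylase gene, they were 69.3, 82.7 and 73.0 against 52.7. In these 3 regions the DMSO value was below all 3 CB-6644 values, and ranking by CB-6644 strength favours that.

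Members shared with DMSO replicate 2 were weaker. The strongest over 4 libraries lay in ESR2, which encodes estrogen receptor beta, with percentiles of 32.5, 60.9 and 33.2 in CB-6644 and 28.2 in DMSO. Those near ZNF326, in SMOX (spermine oxidase) and near CSNK2A3 followed, with DMSO percentiles of 28.6, 23.5 and 23. Ranked by CB-6644, the region 121 kb from YTHDC2, an RNA helicase that binds methylated RNA, had 56.8, 65.9 and 56.1 against 21.2. Near RAB10 (chr2:26008938-26009283), a small GTPase of membrane traffic, the percentiles were 51.4, 48.9 and 51.1 against 4.11, with pile-ups of 42, 18 and 48 against 13. The regions 154 kb from KIF4B, a kinesin gene, and 458 kb from BCOR, a BCL6 corepressor gene, both had a DMSO percentile of 11.5 and CB-6644 percentiles from 47.5 to 55.2. All 4 regions of this ranking had the DMSO peak below the 3 CB-6644 peaks.

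With DMSO replicate 3 the strongest over 4 libraries were the regions near SYNM, an intermediate filament gene, SH2D4A, PDZRN4 and SLITRK1. The SYNM region lay in an intron of TTC23 and had percentiles of 37.0, 35.9 and 25.4 in CB-6644 and 23 in DMSO. At the SLITRK1 region, 149 kb from the start of this neuronal membrane protein gene, the DMSO percentile of 34.5 was above all 3 CB-6644 percentiles of 20.9, 32.5 and 29.5. Ranked by CB-6644, the region in CNRIP1, a cannabinoid receptor interacting protein, had 48.6, 49.6 and 53.5 against 6.45. The region 192 kb from FCRL5, a receptor on B and plasma cells, had 44.1, 41.5 and 52.8 against 6.13, with pile-ups of 55, 21 and 79 against 33. The region 9.30 kb from CCL22, a chemokine gene, had 41.4, 67.2 and 41.6 against 7.25, with pile-ups of 28, 24 and 33 against 15. In GALNT13, which starts O-linked sugar chains, the DMSO percentile was 16.6 against 42.1 to 44.4.

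**Figure D3:**
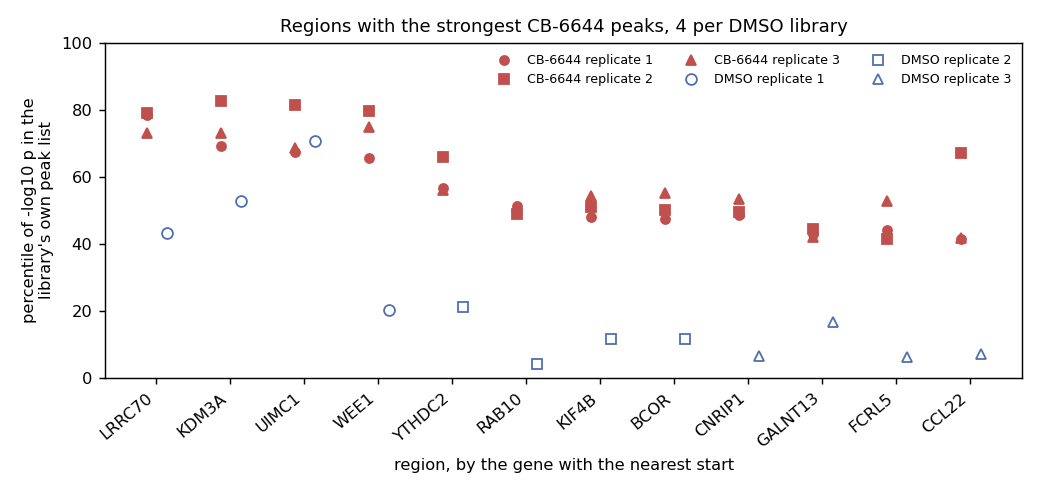
The 12 members with the highest lowest CB-6644 percentile, 4 for each DMSO library, are placed along the horizontal axis by the gene with the nearest start, and the vertical axis is the percentile of -log10 p in each library's own list. Filled red symbols are the 3 CB-6644 libraries and the open blue symbol is the 1 DMSO library with a peak. The DMSO symbol is below all red ones except at UIMC1, where 70.8 lies among 67.5, 68.7 and 81.5, and the ranking by CB-6644 strength favours this order.

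Members lay mostly away from promoters. A promoter, within 1000 bp of a protein-coding start in GENCODE release 44, held 36 members, 4.59% (3.34 to 6.29). The share was 8.74% (7.69 to 9.92) among the 2460 regions with peaks in 2 libraries of each group, which also have 4 calls, and 18.8% among all regions. This difference depended on the libraries and on the peaks used. It was 8.98% against 9.13% at equal list lengths and 8.33% against 8.35% without DMSO replicate 2, and it turned round elsewhere: without DMSO replicate 1 the promoter share was 8.80% against 8.23%, and with peaks cut to 100 bp around their summits it was 21.0% against 19.5%. Leaving out 1 library also changed the comparison regions. Without a DMSO library they had peaks in 2 CB-6644 libraries and in every remaining DMSO library. Without a CB-6644 library they had peaks in 1 CB-6644 library and 2 DMSO libraries. Gene bodies held 361 members (46.0%), and 387 (49.4%, 45.9 to 52.9) were intergenic. The median member was 228 bp wide, from 141 to 759 bp, and 50 kb from a start. Its median distance to a region with peaks in all 6 libraries was 15.0 kb, and 7.65% lay within 1 kb of one. Members had a median GC content of 48.8% and 2.71 CpG per 201 bp window, against 4.29 CpG in the regions with 2 and 2 libraries.

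The promoter members included regulators that were picked for mention after their values were seen. At a start inside KCNJ15 (chr21:38272317-38272564), an inward rectifier potassium channel gene, the pile-up was 80, 79 and 96 tags in CB-6644 and 33 in DMSO replicate 1, and the CB-6644 percentiles reached 88.5, the highest of any member in CB-6644 replicate 2. At the start of USF2, an E-box binding factor, it was 56, 67 and 77 against 64 in DMSO replicate 1, inside the CB-6644 range. At the start of UBD, a ubiquitin-like protein gene induced by cytokines, it was 34, 12 and 23 against 21 in DMSO replicate 3. At GDF15, a stress-induced cytokine gene, it was 8, 10 and 19 against 13 in DMSO replicate 1, and at SMAD7, an inhibitor of TGF-beta signals, 55, 26 and 74 against 60 in DMSO replicate 3. By percentile the DMSO peak ranked below all 3 CB-6644 peaks at KCNJ15 (26.6), at UBD (18.5 against 48.0, 37.0 and 24.3) and at SMAD7 (1.93 against 6.63, 13.3 and 11.7), and within their range at USF2 (50.9) and GDF15 (15.9).

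Motif matches differed between members and regions with as many calls. The 2460 regions with 2 and 2 libraries came unevenly from 9 sets of libraries, with 55 to 864 regions each. The 864 had peaks in the 4 long-fragment libraries only, whereas every member had a peak in CB-6644 replicate 2. The part of library type in the motif differences was not tested. Each of 17 consensus sequences was searched on both strands, up to 100 bp to each side of the summit shown above. The MAF half-site TGCTGAC was found in 101 members, 12.9% (10.7 to 15.4), against 4.67% of the regions with 2 and 2 libraries, 4.93% of these when weighted to the GC content of the members, and 5.30% of all regions. Of the 101 members, 8 had a MAF match that overlapped a match to TGANTCA, the AP-1 site. Read in reverse without complementing, a control of the same letters that contains a CpG, the MAF sequence matched 0.510% of members. The reversed sequences of CAGGTG, NF-kB and TGANTCA matched 7.02%, 2.93% and 5.74% of members. Reversed IRF matched 6.51% of members, above the 5.48% of the IRF consensus itself, and 3.92% of all regions.

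E-boxes are bound by E proteins such as TCF4 and by repressors of the ZEB family. The asymmetric E-box CAGGTG matched 312 members, 39.8% (36.4 to 43.3), against 26.1% with 2 and 2 libraries, 29.1% at the GC content of the members and 27.6% of all regions. The palindromic CAGCTG matched 224, 28.6% (25.5 to 31.8), against 15.7%, 17.1% and 16.7%. At least 1 of these E-boxes was in 441 members (56.2%) and both were in 95 (12.1%), against 37.3% and 4.47% of the regions with 2 and 2 libraries. A MAF match together with an E-box was in 53 members (6.76%), against 1.71%. The MAF and E-box shares were above those of the comparison regions under all 16 alternatives tried for each, by 5.08 to 8.19 percentage points for MAF, 7.88 to 14.6 for CAGGTG and 7.64 to 13.9 for CAGCTG. The alternatives that left out 1 library also changed the comparison regions, as given above for promoters. They are therefore not the same contrast as that with 2 and 2 libraries.

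Other motifs moved less or the other way. The NF-kB consensus matched 59 members, 7.53% (5.88 to 9.59), against 4.67% with 2 and 2 libraries and 4.37% of all regions, and this turned round with the 20000 strongest peaks, at 4.75% against 6.12%. TGANTCA matched 117 members, 14.9% (12.6 to 17.6), against 9.51% and 10.5%, but 10.5% against 10.1% with the 20000 strongest peaks and 12.0% against 10.7% without DMSO replicate 1. The IRF consensus matched 43, 5.48% (4.10 to 7.31), against 11.4% and 10.1%, and was below under all 16 alternatives. With 1 library left out, the comparison regions of every motif changed as given above for promoters. Without a DMSO library, the IRF share of those regions was 14.2% to 15.6%. Weighted to the GC content of the members, the IRF share with 2 and 2 libraries was 8.56%, the smallest gap among the alternatives. TGATGNAA, the composite site of ATF4 with a CEBP factor, matched 16, 2.04% (1.26 to 3.29), against 3.17% and 3.98%. The consensus of CTCF, which anchors chromatin loops, matched 59, 7.53% (5.88 to 9.59), against 17.2% and 13.2%. The CTCF difference turned round without DMSO replicate 1 (15.2% against 11.2%), without DMSO replicate 2 (13.3% against 11.9%) and with the 20000 strongest peaks (20.8% against 13.9%). TGTGGTT, the RUNX site, matched 11.0% of members and 11.1% of all regions.

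Along the number of DMSO libraries with a peak, with all 3 CB-6644 libraries having one, members lay between their neighbours for the 6 motifs given here. For 0, 1, 2 and 3 DMSO libraries the MAF share was 18.4%, 12.9%, 8.93% and 5.38%. CAGGTG went through 42.1%, 39.8%, 32.0% and 29.0%, CAGCTG through 31.2%, 28.6%, 20.6% and 18.2%, and NF-kB through 10.7%, 7.53%, 6.37% and 4.95%. IRF went the other way, through 4.40%, 5.48%, 7.16% and 8.14%, and CTCF from 1.53% to 7.53%, 15.8% and 14.5%. Not every motif followed such an order: TTGCNNAA, the CEBP site, went through 13.6%, 8.29%, 9.84% and 7.43%, and the promoter share was 5.35% with 0, 4.59% with 1 and 9.04% with 2 DMSO libraries. The E-box shares of members overlapped in their intervals with those of the 523 regions without a DMSO peak, and the MAF share of members (10.7 to 15.4) and that of those regions (15.3 to 21.9) met at the edge. In the opposite class of 3165 regions the MAF share was 3.60% and the IRF share 15.9%.

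**Figure D4:**
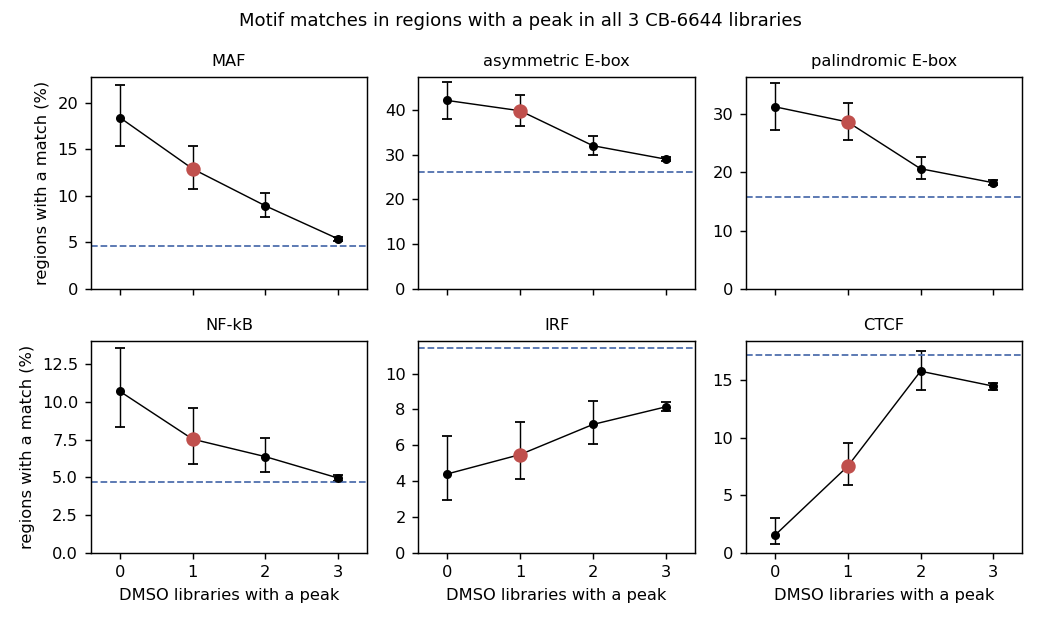
Each panel is 1 motif, with the number of DMSO libraries with a peak on the horizontal axis and the share of regions with a match, in percent, on the vertical axis, for regions with a peak in all 3 CB-6644 libraries. Points carry 95% Wilson intervals, the red point is the 784 members, and the dashed line is the share in the regions with 2 and 2 libraries. MAF fell from 18.4% to 5.38% across the panel while IRF rose from 4.40% to 8.14%.

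Some motif shares differed by the DMSO library that shared the peak. CAGGTG was in 43.6% (39.3 to 48.0) of the members with DMSO replicate 1, 37.1% (30.2 to 44.5) with replicate 2 and 28.5% (21.2 to 37.0) with replicate 3, and the last is close to the 27.6% of all regions. CAGCTG was in 30.1%, 25.9% and 26.0%. The MAF share was 13.2% (10.5 to 16.5), 10.6% (6.80 to 16.1) and 14.6% (9.46 to 21.9) with DMSO replicates 1, 2 and 3, so the intervals overlapped. IRF matches were in 21 of 170 members with DMSO replicate 2, 12.4% (8.22 to 18.1), against 3.67% (2.33 to 5.72) with replicate 1 and 3.25% (1.27 to 8.06) with replicate 3. The reversed IRF sequence matched 8.24% of the members with replicate 2, 5.70% with replicate 1 and 7.32% with replicate 3. CTCF matches were in 46 of 491 with replicate 1, 9.37% (7.10 to 12.3), against 5.88% (3.23 to 10.5) and 2.44% (0.833 to 6.93). The MEF2 consensus was in 12 of 123 with replicate 3, 9.76% (5.67 to 16.3), against 3.46% (2.17 to 5.47) and 2.35% (0.919 to 5.89). Over all members MEF2 was in 4.21%, against 4.02% with 2 and 2 libraries and 3.88% of all regions. The motifs of this paragraph are some of the 17 searched.

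The libraries also differed in CTCF, IRF and MAF matches outside the members. Among regions with a peak in a single library of the 6, CTCF matched 14.4% for CB-6644 replicate 2 and 14.8% for DMSO replicate 1, which had the shortest peaks, and 5.52% to 7.31% for the 4 long-fragment libraries. IRF matched 15.6% and 15.7% of those of DMSO replicates 2 and 3 and 8.39% of those of replicate 1, an order that the members did not share. MAF matched 7.88% to 9.40% of those of the 3 CB-6644 libraries and 2.81% to 3.74% of those of the 3 DMSO libraries, which did not overlap. By the rule, the members shared with DMSO replicate 1, the larger part, have a peak in the long-fragment CB-6644 libraries. They have none in the long-fragment DMSO libraries. The part of fragment length in the CTCF shares was not tested.

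**Figure D5:**
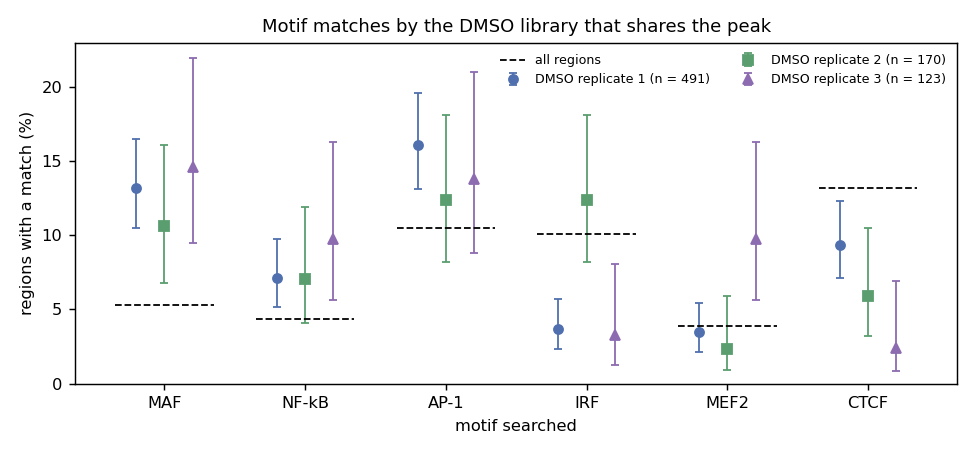
The share of members with a match, in percent on the vertical axis, is plotted for 6 motifs on the horizontal axis and split by the DMSO library with the peak, with 95% Wilson intervals and a dashed line at the share in all 89196 regions. IRF is highest with DMSO replicate 2 at 12.4%, MEF2 with replicate 3 at 9.76% and CTCF with replicate 1 at 9.37%, while MAF lies above its line in all 3.

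Matches lay at various distances from the summits. The median distance to the strongest summit was 32.0 bp for MAF, 27.5 bp for CAGGTG and 28.0 bp for CAGCTG, and 40.6%, 45.8% and 46.0% of the members with a match had one within 25 bp. For MEF2 the median was 59.5 bp. Members with a MAF match had a median lowest CB-6644 percentile of 19.2 and a median DMSO percentile of 11.9, and those without had 16.4 and 13.5. Members with an IRF match had 12.7 and 19.0, and those without had 16.6 and 12.8. Members with a CTCF match had 16.6 and 23.5, and 78.0% of them were shared with DMSO replicate 1.

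Members were spread thinly over genes. Of the 784, 632 lay within 200 kb of the nearest protein-coding start and fell to 606 genes, and 24 genes had at least 2 members. MAP3K5, which encodes the stress kinase ASK1 upstream of JNK and p38, and SEC13, a coat protein of vesicles and nuclear pores, had 3 each. MAP3K5 had 17 regions of any class and SEC13 had 14. The 10 genes with most members had 10 to 32 regions each, and members were 0.879% of all regions. These genes were picked for their many members, so their counts are descriptions only. The MAP3K5 members were all in its introns, and each had its peak in a different DMSO library. Their pile-ups in CB-6644 were 31, 9 and 41 with 19 in DMSO replicate 3, 40, 16 and 30 with 23 in replicate 1, and 42, 17 and 46 with 49 in replicate 2. The DMSO percentiles of 9.85, 8.28 and 20.0 were below all 3 CB-6644 percentiles of each region, which were 40.5, 14.0 and 46.3, then 28.4, 28.9 and 9.33, then 30.7, 30.9 and 30.4. The raw pile-up of the last was nevertheless highest in DMSO.

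The SEC13 members lay in introns of its neighbour ATP2B2, a calcium pump gene, and the window printed above for SEC13 is the one of highest DMSO percentile, with 25.7, 50.3 and 29.7 in CB-6644 and 25 in DMSO replicate 1. Of the genes with 2 members, ST14, which encodes the membrane protease matriptase, had both shared with DMSO replicate 1. In its NF-kB window the pile-up was 82, 49 and 90 against 37, and in the other intronic member 68, 36 and 60 against 36. PLXNA2 (a semaphorin receptor), ESR2, VOPP1, COBL (an actin nucleator), CCR1 and TRAK1 (a mitochondrial transport adaptor) each had members with 2 different DMSO libraries, and KCNJ15 had both with DMSO replicate 1. In the other KCNJ15 member the DMSO percentile of 35.2 was above the CB-6644 percentiles of 7.94, 1.92 and 6.27, unlike that at its internal start.

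Members were assigned to genes of the lists that bear on this cell and treatment about as often as all regions were. The 11 lists hold 249 genes, and 11 members (1.40%) were assigned to 10 of them, against 1.59% of all regions and 1.14% of those with 2 and 2 libraries. The plasma cell, MAF, and MAPK feedback and AP-1 lists had 3 members each (0.383%), against 0.186%, 0.105% and 0.327% of all regions. The NF-kB and integrated stress lists had 1 each (0.128%), against 0.216% and 0.109% of all regions. Counts this small are not read as results about the members. The interferon, p53, B cell, DNA replication, E protein and RUVBL1/2 complex lists had 0, but each of these took 0.0594% to 0.146% of all regions, so nothing is read from a count of 0 among 784 members. No member lay within 50 kb of RUVBL1, RUVBL2, IRF4, DUSP22, CDK6, MAF, TCF4, E2F1, ATF4, CEBPB or CEBPG, which had 4 to 30 regions each within that distance and a promoter peak in 6 libraries. With members at 0.879% of all regions, a count of 0 near so few regions is not a result about the members.

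The members assigned to listed genes lay 2.78 to 189 kb from the start of the gene, and some were in its introns. In an intron of CX3CR1, a chemokine receptor gene of the MAF list, the percentiles were 48.9, 67.4 and 45.8 in CB-6644 and 30.4 in DMSO replicate 1. The CCR1 member 2.78 kb from its start had 23.1, 39.9 and 33.0 against 1.99 in DMSO replicate 2, and that in CCR3 had 35.6, 27.6 and 36.9 against 6.51 in DMSO replicate 1. In these 3 the DMSO peak ranked below every CB-6644 peak. A region 189 kb from DUSP6, a phosphatase of ERK, had percentiles of 62.9, 25.2 and 54.3 against 4.55 in DMSO replicate 1. The region 180 kb from DUSP10, a phosphatase of p38 and JNK, had 30.5, 12.9 and 17.4 against 34.5 in DMSO replicate 1, so its DMSO peak ranked above all 3. The region 91.3 kb from IER5, an immediate early gene, had 13.3, 3.13 and 15.4 against 11.9 in DMSO replicate 3.

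Of the plasma cell genes, the region 94.9 kb from PRDM1 had percentiles of 22.1, 14.3 and 24.3 against 11.5 in DMSO replicate 2. That 185 kb from ELL2, an elongation factor for antibody transcripts, had 23.2, 25.8 and 12.2 against 7.25 in DMSO replicate 3. In an intron of CD38, a surface enzyme of plasma cells, the values were 6.45, 17.7 and 9.07 against 16.9 in DMSO replicate 1, so the groups overlapped. In an intron of MAP3K14, the kinase NIK of the alternative NF-kB pathway, they were 22.8, 24.9 and 19.1 against 19.3 in DMSO replicate 2, and the groups overlapped too. The member assigned to CHAC1, a glutathione-degrading enzyme gene of the stress response, lay 64.5 kb away in an intron of INO80, a chromatin remodeler of a RUVBL1/2 complex, with 25.1, 15.0 and 17.1 against 9.90 in DMSO replicate 3.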

How the data were processed

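The authors mapped reads with Bowtie2 (hg38) and ran MACS3 on each library (the submitters' processing notes name versions 2.4.2 and 3.0), and replicates were not pooled. The deposited fold enrichment is a ratio of pile-up to local background, and the deposited -log10 p and -log10 q values are those of the summit, with no scaling between libraries. Pile-up and background were solved from the fold and the -log10 p, assuming Poisson tags and a fold with 1 added to each term, to within 0.02, which 100% of the peaks met. Sequence came from hg38 and genes from GENCODE release 44 (20033 protein-coding genes), and 0 peaks ran past a chromosome end. The gene of a region is the one with the nearest protein-coding start, counted for it up to 200 kb away. Scripts used Python 3.11.15, numpy 2.4.6, scipy 1.17.1, pandas 2.3.3, pysam 0.24.0 and matplotlib 3.10.9 and were tested on simulated data. Regions named were, for each DMSO library, the 4 with the highest lowest percentile over 4 and over the 3 CB-6644 libraries, the 10 genes with most members, the genes of 11 lists with a member and fixed lookups. The members, lists and motifs were chosen with earlier results of these data known.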

Additional observations from a re-analysis of the deposited data

How the results depend on the processing

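The number of members fell to 400 with the 20000 strongest peaks and to 391 when a library had to cover 50% of the region, and rose to 1393 with windows of 100 bp around summits. Leaving out 1 library gave 1198 to 2124. The share with DMSO replicate 1 was 34.2% at equal list lengths, 70.0% with the 20000 strongest peaks, 70.1% with 50% coverage, 68.7% with summit windows and 48.6% to 77.2% with 1 library left out. The promoter share was 8.98%, 22.8% and, turned round, 21.0% (19.5% in the comparison regions) at equal lengths, with 20000 peaks and with summit windows. It was 7.27% within 2000 bp of a start, 2.93% within 500 bp, and 4.88% to 8.80% with 1 library left out, turned round at 8.80% without DMSO replicate 1.

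At equal lengths, MAF was 10.6%, CAGGTG 35.4% and CAGCTG 25%. With 20000 peaks, MAF was 10.5%, AP-1 10.5%, IRF 3.75% and, turned round, NF-kB 4.75% and CTCF 20.8%. With summit windows, MAF was 9.83%, CAGGTG 35.0%, CAGCTG 24.7% and AP-1 12.3%. Within 50 bp of the summit, MAF was 8.80%, CAGGTG 29.6%, CAGCTG 20.3%, NF-kB 4.97%, AP-1 10.3%, IRF 3.70% and CTCF 5.48%. With 1 library left out, MAF was 9.21% to 11.2%, CAGGTG 32.8% to 37.9%, CAGCTG 21.6% to 25.9%, NF-kB 6.01% to 7.55%, AP-1 12.0% to 14.1%, IRF 5.18% to 7.88% and CTCF 6.74% to 15.2%, turned round at 15.2% without DMSO replicate 1 and at 13.3% without DMSO replicate 2. Genes with at least 2 members numbered 2 with 20000 peaks, 7 with 50% coverage, 64 with summit windows and 45 to 132 with 1 library left out, against 24. Shorter lists and fewer libraries change the rule by construction, and the cause of the other changes was not tested. Leaving out 1 library also changed the comparison regions, as given above for promoters. Of 167 values set beside the reported ones, 90 stayed within the interval of the reported value, or within 1.5 times a reported count. The GC alternative of each motif changed the comparison share only, so its member share counted as unmoved by construction. No paired analysis was possible because the results come from no test. The lists give no depth, and a region without a listed peak may hold signal below the caller's threshold.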
